A study of Mus musculus with 32 samples.

Results

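The genes of the bone morphogenetic protein (BMP), transforming growth factor beta (TGF-beta) and activin pathway were followed in embryonic mouse forebrain, from the secreted ligands through their receptors and SMAD proteins to the ID target genes. Members were chosen by gene symbol alone, as the numbered Bmp, Gdf and Smad genes, Tgfb1 to Tgfb3, Tgfbr1 to Tgfbr3, the Bmpr and Acvr receptors, the inhibin subunits, Id1 to Id4 and the antagonists Nog, Chrd, Grem1 and Fst. The rule matched 57 of 26331 named genes. The symbol rule also takes in Bmp1, which encodes a procollagen protease and not a BMP ligand.

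RNA was counted per gene in 32 libraries, from dorsal telencephalon of embryos at E12.5 and from cortex at E15.5, where E gives the embryonic day. On the C57BL/6 background, wild type (WT) and embryos labelled Kat6b knockout (Kat6b-/-) were each sampled with 3 libraries at the earlier age and 5 at the later. The mixed FVBxBALB/c background gave 4 libraries per age of WT and 4 of Tg(Kat6b), which carry added Kat6b as a transgene. Kat6b encodes a histone acetyltransferase, and the study asked how its loss and its gain change RNA levels in the developing cortex. The labels used here give neither the deleted part of Kat6b nor the transgene's promoter, and name no cell type to which either allele was restricted. Age goes with the dissected tissue, and background goes with the sequencing batch, so neither pair can be told apart.

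BMP ligands bind paired type I and type II receptors, which phosphorylate SMAD1, SMAD5 and SMAD9; TGF-beta and activin ligands act in the same way through SMAD2 and SMAD3, and both branches share SMAD4. In the embryonic forebrain the dorsal midline, with the cortical hem, choroid plexus and overlying meninges, is a known source of BMPs, and BMPs pattern the dorsal telencephalon. The ID proteins are well known BMP targets that bind basic helix-loop-helix factors and hold progenitors back from differentiation.

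Total counts ran from 10424813 to 49699656 per library. Ribosomal Rn45s took 17.5% of the counts of labelled knockout library 3 at E15.5 and at most 0.664% elsewhere. Kat6b stood between 465.5 and 769.4 CPM (counts scaled to library size) in the Tg(Kat6b) libraries and between 150.9 and 224.7 in all WT libraries. In the labelled knockout it stood between 120.7 and 190.5, overlapping WT; these whole-gene counts cannot check the label, because the deleted part is not given. The 11 cortical neuron markers (Tbr1, Neurod6 and others) were present in every library, summing to between 2949 and 5283 CPM at E12.5 and between 7888 and 10570 at E15.5, with no overlap between the ages. Markers of other regions and tissues were present too. Those of ventral telencephalon and interneurons (12 genes) summed to between 261.6 and 1072 CPM at E12.5 and between 451.8 and 1241 at E15.5, and those of diencephalon, midbrain and hindbrain (16 genes) to between 137.8 and 886.8 and between 73.69 and 359.5. The 20 meningeal and mesenchymal markers (Col1a1, Foxc1 and others) summed to between 369.6 and 2934 CPM at E12.5 and between 111.5 and 394.8 at E15.5, and the 10 erythroid markers found to between 1367 and 9779 and between 170.5 and 491.4. The 20 cortical hem and choroid plexus markers (Ttr, Lmx1a and others) summed to between 226.4 and 657.6 at E12.5. At E15.5 they were at 489.1 or more in 6 libraries, which are C57BL/6 WT libraries 3 and 4, labelled knockout libraries 1, 3 and 4 and FVBxBALB/c WT library 3, and at 160.1 or less in the other 12.

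The largest differences among these genes lay between the ages. In both wild types Bmp4, Bmp5, Bmp6 and Bmp7 were lower at E15.5, as were Tgfbr3, Smad3, Id3 and Id4, while the activin and inhibin subunit genes Inhba, Inhbb and Inha and the target Id2 were higher. Of the 57 members, 45 passed the filter on low counts in each background. At an adjusted p below 0.05 by edgeR's quasi-likelihood test, 35 of the 45 differed with age in C57BL/6 WT (13 higher and 22 lower), against 56.8% of all genes tested. On the other background 27 differed in WT (8 higher and 19 lower), against 50.1%. In the labelled knockout 36 differed, against 56.4%, and in Tg(Kat6b) 30, against 46.3%. The median absolute log2 fold change of the tested members was 0.72 in C57BL/6 WT and 0.73 in FVBxBALB/c WT, where over all genes tested it was 0.42 and 0.40. Calls in the same direction in both wild types covered 8 members higher at E15.5 and 18 lower, with 0 opposite; over the 15448 genes tested in both backgrounds, 22.4% were higher in both and 20.9% lower in both. In bulk tissue, fewer cells of a type and less RNA per cell cannot be told apart.

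**Figure D1:**
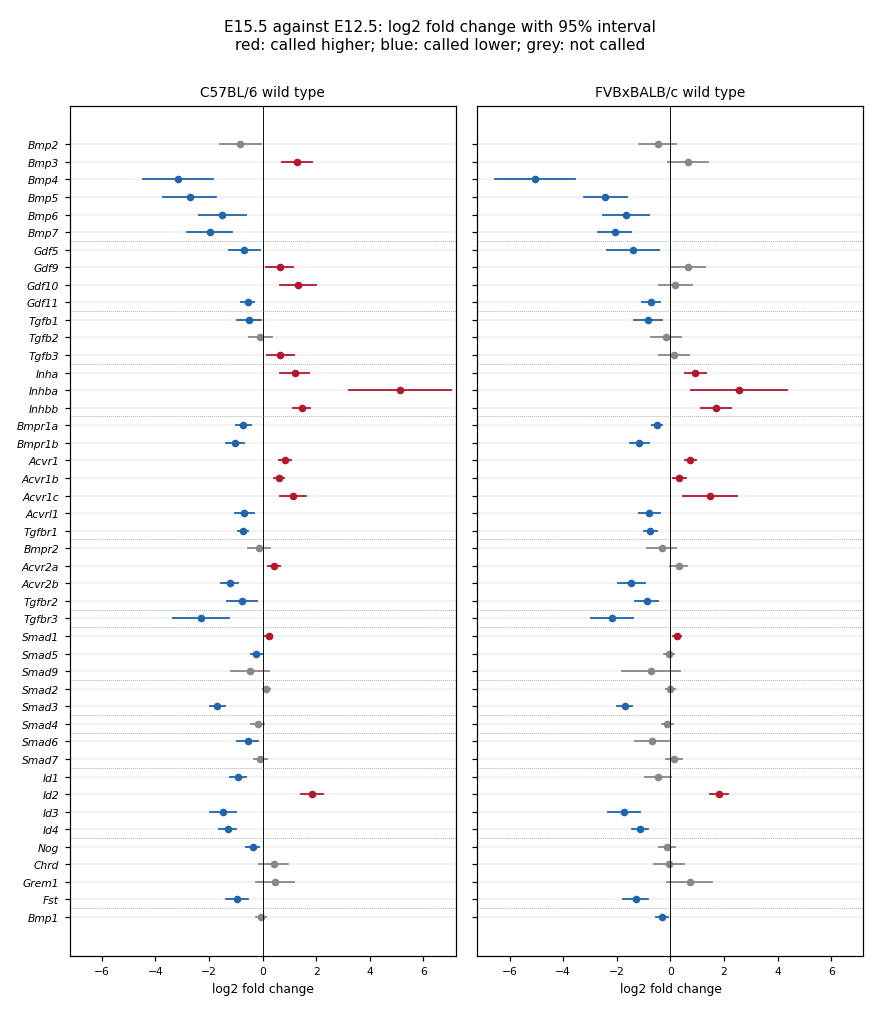
Log2 fold change of each of the 45 tested members at E15.5 against E12.5 (horizontal axis, with 95% interval) in C57BL/6 WT (3 and 5 libraries) and FVBxBALB/c WT (4 and 4), ordered by role from ligands at the top to antagonists and Bmp1. Red points were called higher, blue lower and grey not called; Bmp4 lies farthest left and Inhba farthest right in both panels.

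The ID genes, known as BMP targets, are shown first with the sequence before their start. Whether their RNA follows BMP signalling in this tissue was not tested. Promoters are printed for the 3 ID genes called in both wild types, Id2 being higher at E15.5 and Id3 and Id4 lower. Each sequence holds the 250 bases before the gene start, 5′ to 3′ on the gene's strand, from RefSeq on GRCm38.p6: Id2 at chr12:25096093-25096342 (minus strand), Id3 at chr4:136143572-136143821 (plus strand) and Id4 at chr13:48260866-48261115 (plus strand). Capitals mark GGCGCC, a GC-rich sequence that BMP-activated SMADs are known to bind, and CAGAC or its reverse complement GTCTG, the core of the SMAD-binding element.
Id2: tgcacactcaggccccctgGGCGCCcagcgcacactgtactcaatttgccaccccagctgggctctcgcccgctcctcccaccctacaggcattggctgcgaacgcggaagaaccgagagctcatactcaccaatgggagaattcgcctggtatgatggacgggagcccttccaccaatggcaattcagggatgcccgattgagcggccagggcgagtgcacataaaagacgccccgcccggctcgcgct
Id3: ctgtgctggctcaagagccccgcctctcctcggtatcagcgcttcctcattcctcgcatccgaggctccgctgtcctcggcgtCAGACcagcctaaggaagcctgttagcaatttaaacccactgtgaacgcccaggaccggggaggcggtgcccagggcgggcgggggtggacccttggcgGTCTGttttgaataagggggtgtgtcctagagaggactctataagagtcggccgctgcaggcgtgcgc
Id4: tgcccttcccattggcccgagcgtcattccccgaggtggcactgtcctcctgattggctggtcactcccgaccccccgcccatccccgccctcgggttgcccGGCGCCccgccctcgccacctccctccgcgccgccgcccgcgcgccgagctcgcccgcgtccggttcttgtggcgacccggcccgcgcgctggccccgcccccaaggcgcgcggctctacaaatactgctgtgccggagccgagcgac
Id2 held 1 GGCGCC, which begins 231 bases before the start, and Id4 held 1, at 148 bases. Id3 held CAGAC at 167 bases and GTCTG at 68 bases, and no GGCGCC. A search on both strands found GGCGCC in 10.8% and CAGAC in 45.8% of the 27025 genes with such a sequence, and in 10 and 19 of the 40 members that have one. CACGTG, an E-box searched in the same way, was in 6.9% of all genes, in 5 of the 40 members and in none of these 3. No match overlapped another here, and a match is a description of the letters, not evidence of a bound site.

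Id4 and Id2 exchanged places as the most abundant member per gene length. Id2 rose in both wild types, by 1.85 on the log2 scale in C57BL/6 (SE 0.19, adjusted p = 1.26e-06) and 1.80 in FVBxBALB/c (SE 0.16, adjusted p = 1.37e-07). Its C57BL/6 WT libraries were at 76.4, 54.3 and 63.1 CPM at E12.5 and at 254, 171, 267, 225 and 231 at E15.5, with no overlap. Id4 stood at 534, 485 and 482 CPM at E12.5 and at 182, 227, 218, 179 and 193 at E15.5, again without overlap, and fell by 1.31 on the log2 scale in C57BL/6 (SE 0.16, adjusted p = 3.69e-06) and by 1.13 in FVBxBALB/c (SE 0.14, adjusted p = 6.26e-06). Per kilobase of the deposited gene length (RPKM), Id4 was above Id2 in 14 of 14 libraries at E12.5, at a median ratio of 5.25, and in 3 of 18 at E15.5, at a median ratio of 0.63. Id3 went from 83.4, 38.0 and 53.3 CPM to 17.2, 18.3, 25.8, 19.5 and 22.1 in C57BL/6 WT, and fell by 1.48 (SE 0.22, adjusted p = 4.07e-05), and fell by 1.73 in FVBxBALB/c WT (SE 0.28, adjusted p = 9.15e-05). Its highest library at E12.5 was library 1 in C57BL/6 WT and library 4 in FVBxBALB/c WT (59.7 CPM). Both libraries also had the highest meningeal sums and the highest hem and choroid plexus sums of their groups. Id1 fell in C57BL/6 WT, from 23.6, 14.6 and 20.1 CPM to between 8.74 and 11.6 (log2 fold change -0.92, SE 0.15, adjusted p = 4.38e-05). Its ranges overlapped in FVBxBALB/c WT, where the difference was -0.46 on the log2 scale (SE 0.23) and was not called (adjusted p = 0.108).

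**Figure D2:**
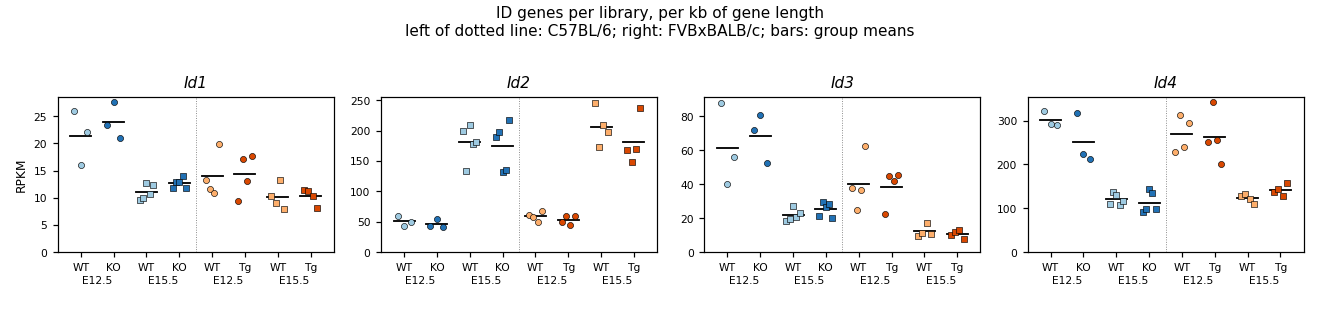
RPKM (vertical axis, from 0) of Id1, Id2, Id3 and Id4 in every library, with circles for E12.5, squares for E15.5 and bars for group means; C57BL/6 stands left of the dotted line and FVBxBALB/c right. Id2 is higher in all 18 E15.5 libraries than in any of the 14 at E12.5, and Id4 lower.

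Among the BMP ligand genes known from the hem and roof plate, Bmp4, Bmp5, Bmp6 and Bmp7 were lower at E15.5. Bmp4 (chr14:46383525-46390669, GRCm38) encodes a roof plate and hem BMP. Its C57BL/6 WT libraries were at 8.40, 3.45 and 4.27 CPM at E12.5 and at 0.27, 0.41, 1.57, 0.58 and 0.21 at E15.5. The FVBxBALB/c WT libraries were at 3.97, 2.97, 6.80 and 12.4 and then at 0.098, 0.18, 0.35 and 0.099. No E15.5 library reached an E12.5 library of the same group. On the log2 scale the differences were -3.15 in C57BL/6 WT (SE 0.61, adjusted p = 4.17e-04) and -5.06 in FVBxBALB/c WT (SE 0.70, adjusted p = 1.97e-05). The FVBxBALB/c WT value rests on 11 counts at E15.5 against 1075 at E12.5, a 39.2-fold lower level with an exact 95% interval of 21.8 to 78.7 that covers counting error only. Bmp7, the most abundant BMP ligand per length in every group, fell by 1.96 in C57BL/6 WT (SE 0.39, adjusted p = 5.89e-04) and by 2.08 in FVBxBALB/c WT (SE 0.29, adjusted p = 1.90e-05). It stood at 28.8, 16.6 and 20.4 CPM and then between 3.09 and 9.69 in the former, with no overlap. Bmp5 fell by 2.73 (SE 0.47, adjusted p = 1.44e-04) and 2.43 (SE 0.38, adjusted p = 6.35e-05), from between 3.69 and 10.3 CPM to between 0.58 and 1.18 in C57BL/6 WT. For Bmp6 the falls were by 1.51 (SE 0.42, adjusted p = 0.00576) and 1.67 (SE 0.40, adjusted p = 0.00247). The Bmp6 call in C57BL/6 WT rested on library 1 at E12.5, at 9.38 CPM where the other libraries were at 3.20 and 4.37 and E15.5 library 3 was at 3.64; without it the log2 fold change was -0.92 (adjusted p = 0.0789). In the labelled knockout Bmp6 was not called (-0.36, SE 0.41, adjusted p = 0.473).

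**Figure D3:**
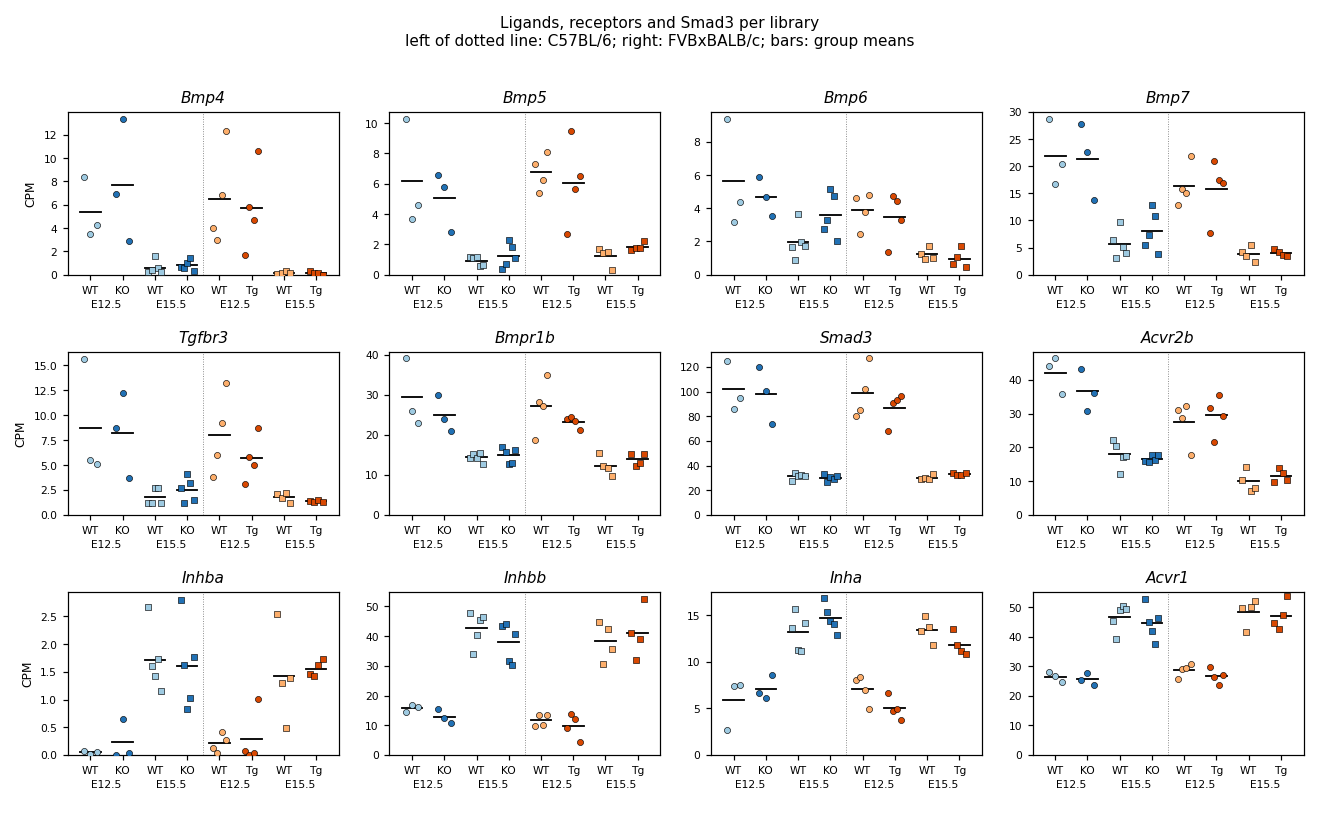
CPM (vertical axes, from 0) of 12 members in every library, with circles for E12.5, squares for E15.5 and bars for group means; C57BL/6 stands left of the dotted line and FVBxBALB/c right. The 4 Bmp genes, Tgfbr3, Bmpr1b, Smad3 and Acvr2b sit lower at E15.5 in both wild types and Inhba, Inhbb, Inha and Acvr1 higher.

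The remaining ligand genes changed in both directions or were not called. Bmp2, also known from the hem and roof plate, was called in neither wild type (-0.82, adjusted p = 0.0574, and -0.48, adjusted p = 0.227). It stood at 3.61 CPM or less in every library. Bmp3, known as an antagonist-like family member, rose in C57BL/6 WT from between 1.53 and 2.16 CPM to between 3.5 and 6.25 (1.28, SE 0.27, adjusted p = 6.86e-04) and was not called in FVBxBALB/c WT (0.66, adjusted p = 0.136). Gdf11, a ligand that signals through activin receptors, and Gdf5 were lower in both wild types, by 0.55 and 0.67 in C57BL/6 and by 0.72 and 1.40 in FVBxBALB/c. Of the TGF-beta genes, Tgfb1 was lower in both (-0.51 and -0.85). Tgfb2, the most abundant of the 3 per length, was called in neither (-0.09 and -0.16). Tgfb3 was higher in C57BL/6 WT (0.66, adjusted p = 0.027) and not called in FVBxBALB/c WT (0.12, adjusted p = 0.73). Gdf10 rose in C57BL/6 WT (1.33, SE 0.32, adjusted p = 0.00187) and was not called in FVBxBALB/c WT (0.18, adjusted p = 0.635). Gdf9 was called in C57BL/6 WT (0.63, adjusted p = 0.0273) and not in FVBxBALB/c WT (0.64, adjusted p = 0.0825).

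All 3 tested activin and inhibin subunit genes were higher at E15.5 in both wild types. Inhbb, which encodes the beta B subunit of activin B, stood at 14.4, 16.8 and 16.1 CPM in C57BL/6 WT at E12.5 and at 47.8, 33.9, 40.4, 45.4 and 46.5 at E15.5. It stood at 9.65, 13.5, 10.1 and 13.5 and at 44.7, 30.7, 42.3 and 35.8 in FVBxBALB/c WT. The lowest E15.5 library lay above the highest E12.5 library in both, with log2 fold changes of 1.46 (SE 0.15, adjusted p = 7.65e-07) and 1.70 (SE 0.26, adjusted p = 4.98e-05). Inhba (chr13:16004256-16031609, GRCm38), which encodes the beta A subunit of activin A, was close to 0 at E12.5. It had 2, 1 and 1 counts in the C57BL/6 WT libraries at E12.5 and 30, 47, 29, 27 and 44 at E15.5, a ratio per effective library size of 36.0 (exact 95% interval 13.8 to 134, counting error only). The adjusted p was 1.46e-04. In FVBxBALB/c WT 35 counts at E12.5 stood against 75 at E15.5 in shallower libraries, a ratio of 5.34 (3.53 to 8.22, adjusted p = 0.019). That call was lost without E15.5 library 1 (log2 fold change 2.17, adjusted p = 0.0648). Inha, the alpha subunit that turns activins into inhibins, went from between 2.68 and 7.54 CPM to between 11.2 and 15.7 in C57BL/6 WT (1.2, SE 0.25, adjusted p = 6.59e-04), and rose by 0.93 in FVBxBALB/c WT (SE 0.18, adjusted p = 4.40e-04).

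The 7 type I receptor genes divided, with all 7 called in both wild types. Higher at E15.5 were Acvr1, Acvr1b and Acvr1c, the genes of ALK2, ALK4 and ALK7. Acvr1 was at 28.1, 26.6 and 24.6 CPM and then at 45.1, 39.1, 48.9, 50.3 and 49.3 in C57BL/6 WT (0.83, SE 0.11, adjusted p = 5.64e-06), and its ranges did not overlap in FVBxBALB/c WT either (0.74, SE 0.10, adjusted p = 1.47e-05). Acvr1b rose by 0.60 (SE 0.09, adjusted p = 2.34e-05) and 0.33 (SE 0.11, adjusted p = 0.023). The FVBxBALB/c call was lost without E12.5 library 4 (0.23, adjusted p = 0.0658), without E15.5 library 1 (0.30, adjusted p = 0.059) and without E15.5 library 2 (0.30, adjusted p = 0.0599). Acvr1c, at most 3.57 CPM in any library, rose by 1.14 (SE 0.23, adjusted p = 3.69e-04) and 1.48 (SE 0.48, adjusted p = 0.0162), and in FVBxBALB/c WT the call was lost without E15.5 library 3 (1.28, adjusted p = 0.0557). Lower were the BMP receptors Bmpr1a and Bmpr1b, the endothelial Acvrl1 and the TGF-beta receptor Tgfbr1. Bmpr1b stood at 39.2, 26 and 22.8 CPM and then at between 12.6 and 15.4 in C57BL/6 WT (-1.02, SE 0.16, adjusted p = 3.44e-05), and its log2 fold change was -1.16 in FVBxBALB/c WT (SE 0.17, adjusted p = 2.81e-05). Tgfbr1, the most abundant type I receptor per length at E12.5 in every group, fell by 0.72 (adjusted p = 4.64e-06) and 0.76 (adjusted p = 5.20e-05), Bmpr1a by 0.72 and 0.49, and Acvrl1 by 0.67 and 0.79.

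Among type II receptors, Acvr2b fell and its paralog Acvr2a did not. Acvr2b, which binds activins and several BMPs, was at 44.3, 46.4 and 35.8 CPM and then at 22.3, 20.5, 12.2, 17.2 and 17.5 in C57BL/6 WT (-1.22, SE 0.15, adjusted p = 3.33e-06), and fell by 1.46 in FVBxBALB/c WT (SE 0.23, adjusted p = 6.93e-05). Acvr2a was higher in C57BL/6 WT (0.41, SE 0.11, adjusted p = 0.00332) and not called in FVBxBALB/c WT (0.31, SE 0.15, adjusted p = 0.0926). Per length, the median ratio of Acvr2b to Acvr2a was 0.80 over the E12.5 libraries and 0.31 over those at E15.5, and Acvr2b was above Acvr2a in 4 of 14 and 0 of 18 libraries. Tgfbr2 fell by 0.78 (SE 0.26, adjusted p = 0.0184) and 0.89 (SE 0.20, adjusted p = 0.00158); in C57BL/6 WT the call was lost without E12.5 library 1 (-0.47, adjusted p = 0.168). Bmpr2 was called in neither wild type (-0.14 and -0.33). The coreceptor gene Tgfbr3, which encodes betaglycan, was at 15.7, 5.49 and 5.11 CPM and then at 1.16, 1.16, 2.71, 2.69 and 1.23 in C57BL/6 WT, a fall by 2.29 (SE 0.50, adjusted p = 0.00106), and fell by 2.18 in FVBxBALB/c WT (SE 0.37, adjusted p = 1.12e-04).

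Of the SMAD genes, Smad3 changed most. Smad3 (chr9:63646766-63757994, GRCm38) stood at 125, 86.0 and 94.8 CPM at E12.5 and at 27.6, 33.8, 31.3, 31.9 and 31.6 at E15.5 in C57BL/6 WT. The FVBxBALB/c WT libraries were at 79.9, 85.2, 102 and 127 and at 28.9, 30.2, 28.9 and 32.7. The groups lay far apart, with log2 fold changes of -1.68 (SE 0.13, adjusted p = 4.80e-08) and -1.71 (SE 0.14, adjusted p = 5.40e-08). Smad2, its partner in the TGF-beta branch, was called in neither wild type (0.14, 95% interval 0.01 to 0.27, adjusted p = 0.0649, and 0.00, -0.17 to 0.17, adjusted p = 0.99). Per length Smad3 was above Smad2 in 12 of 14 libraries at E12.5 (median ratio 1.2) and in 0 of 18 at E15.5 (median ratio 0.40). Smad1, of the BMP branch, was slightly higher in both wild types (0.23, SE 0.06, adjusted p = 0.00447, and 0.25, SE 0.07, adjusted p = 0.00845). Smad5 was lower in C57BL/6 WT (-0.24, adjusted p = 0.0411) and not called in FVBxBALB/c WT (-0.07). Smad9 was called in neither (-0.46 and -0.73). The shared Smad4 and the inhibitory Smad7 were called in none of the 4 age comparisons, and the inhibitory Smad6 was lower in C57BL/6 WT (-0.56, adjusted p = 0.0187) and not called in FVBxBALB/c WT (-0.69, adjusted p = 0.071).

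Of the 4 antagonist genes, Fst, which encodes the activin-binding follistatin, fell in both wild types. It went from 14.5, 11.9 and 12 CPM to between 5.95 and 6.94 in C57BL/6 WT (-0.96, SE 0.20, adjusted p = 5.15e-04) and fell by 1.30 in FVBxBALB/c WT (SE 0.22, adjusted p = 1.39e-04). Nog, which encodes the BMP antagonist noggin, was lower in C57BL/6 WT (-0.38, adjusted p = 0.0131) and not called in FVBxBALB/c WT (-0.13, adjusted p = 0.458). Chrd and Grem1, for chordin and gremlin, were called in neither wild type. The protease gene Bmp1 was lower in FVBxBALB/c WT (-0.31, adjusted p = 0.0147) and not called in C57BL/6 WT (-0.07). A few members were called with age only beside a Kat6b genotype: Bmpr2 (0.52), Grem1 (1.07) and Smad2 (0.26) were higher in the labelled knockout, Bmp2 lower in Tg(Kat6b) (-1.37), and Smad9 lower in both (-0.86 and -1.51), and for none was the interaction of genotype and age called.

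Of the 12 members that did not pass the filter, Gdf1 had 0 counts in all 32 libraries. Its 0 cannot tell absent RNA from reads that the counting left out, because the counting settings are not named. Each of Bmp8a, Bmp8b, Bmp10, Bmp15, Gdf2, Gdf3, Gdf15, Inhbc and Inhbe had at most 15 counts in a library. Gdf6 and Gdf7, ligand genes known from the roof plate, reached 39 and 29 counts. Gdf6 was highest in Tg(Kat6b) library 4 at E12.5 (1.36 CPM) and Gdf7 in C57BL/6 WT library 1 at E12.5 (0.85 CPM), the libraries with the highest meningeal sums of their groups. That C57BL/6 WT library also had the highest hem and choroid plexus sum of its group.

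The 4 E12.5 libraries with the highest Bmp4 were also the 4 with the highest meningeal sums: labelled knockout 3 (13.3 CPM, markers at 2934), FVBxBALB/c WT 4 (12.4, 2695), Tg(Kat6b) 4 (10.6, 1814) and C57BL/6 WT 1 (8.40, 1914). In each of the 4 groups at E12.5 the library highest in meningeal markers was also highest for 10 of the 45 tested members, which were Bmp2, Bmp4, Grem1, Id1, Id3, Smad9, Tgfb2, Tgfb3, Tgfbr2 and Tgfbr3 (22.2%, against 5.2% of all 15448 genes). For 7 others, Bmp5, Bmp6, Bmp7, Bmpr1a, Bmpr1b, Nog and Smad6, it was the library highest in hem and choroid plexus markers in all 4 groups (15.6%, against 5.95% of all genes). In C57BL/6 WT (library 1) and FVBxBALB/c WT (library 4) the same library was highest in both marker lists. Only the labelled knockout and Tg(Kat6b) groups therefore tell the lists apart. At E15.5 no tested member was highest in the top library of either list in all 4 groups. The share over all genes was not counted at that age. Between the ages the median meningeal sum went from 805 to 136 CPM, the median hem and choroid plexus sum from 457 to 129, that of diencephalon, midbrain and hindbrain from 395 to 105, and that of cortical neurons from 4133 to 8895. The part of these tissues and cell types in the age differences was not tested.

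**Figure D4:**
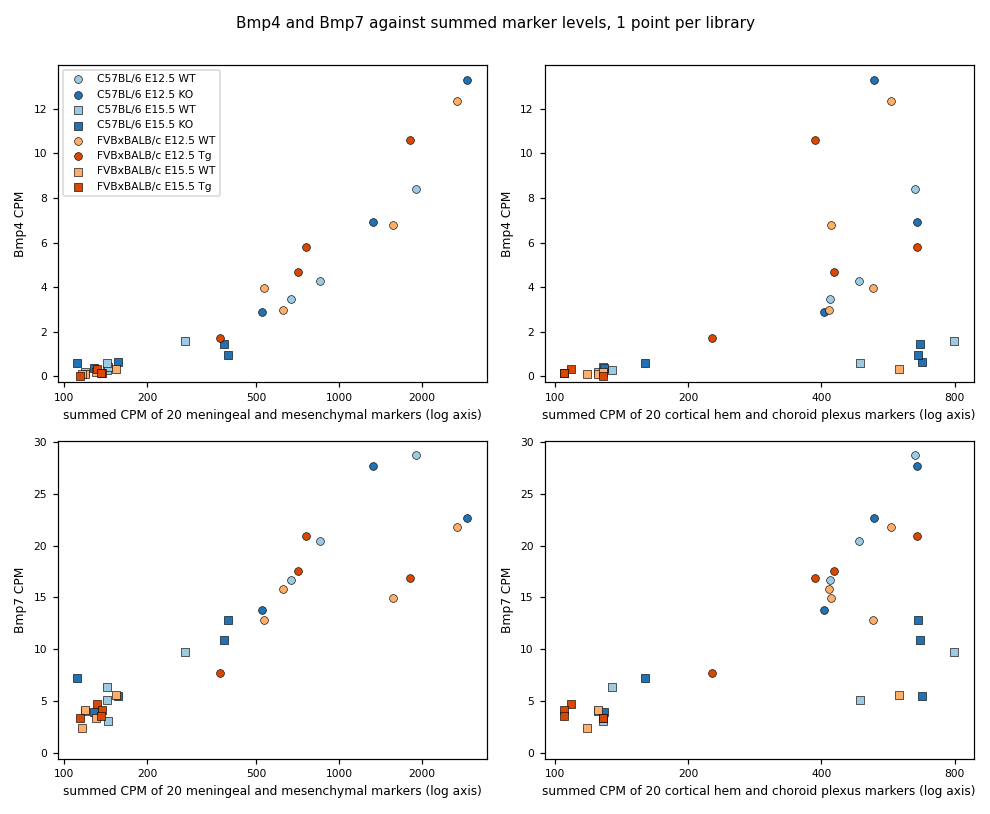
CPM of Bmp4 (top) and Bmp7 (bottom) in every library against the summed CPM of 20 meningeal and mesenchymal markers (left) and 20 cortical hem and choroid plexus markers (right) on log axes, with circles for E12.5 and squares for E15.5. Bmp4 is highest in the E12.5 libraries with the highest meningeal sums, and 6 E15.5 libraries with hem and choroid plexus sums of 489.1 or more stay at or below 1.57 CPM.

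Of 55 further pathway genes, a list of other antagonists, matrix binders, corepressors and targets, 46 were tested in both backgrounds. With age 8 were higher in both wild types (17.4%, against 22.4% of all genes) and 13 lower (28.3%, against 20.9%), and 0 were opposite, so the shares lay near those of all genes. Lefty2, an inhibitor of the activin-like ligand Nodal, was at most 0.11 CPM in any E12.5 WT library and between 0.83 and 2.79 in the E15.5 WT libraries (adjusted p = 1.56e-06 and 1.47e-06). Pmepa1, a TGF-beta-induced inhibitor of SMAD2 and SMAD3, rose by 1.01 in both, from between 26.6 and 37.3 CPM to between 59.9 and 69.5. Smurf1, an E3 ligase for SMADs, Ski, a SMAD corepressor, and the latent TGF-beta binders Ltbp1 and Ltbp3 were also higher in both. Lower in both were the BMP targets Msx1 (-2.82 and -3.37), Msx3 (-1.45 and -1.32) and Msx2, which was at most 0.44 CPM in any E15.5 WT library, the BMP antagonist Chrdl1 (-1.32 and -1.39), the corepressor Tgif1 (-1.81 and -1.61) and the TGF-beta-induced matrix gene Tgfbi (-2.99 and -3.82). Tgfbi varied widely at E12.5, between 6.25 and 53.6 CPM in FVBxBALB/c WT.

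The study's own comparisons are those of Kat6b genotype. None of the 45 tested members differed between the labelled knockout and WT at E12.5 by edgeR's test, against 0.0062% of all genes tested. An unadjusted p under 0.05 was found for 5 of the 45 members and for 842 of the 16118 genes tested (5.22%). At E15.5 the number called was 0, against 0% of all genes. There 2 of the 45 members were at an unadjusted p under 0.05, where 2.83% of all genes were. Between Tg(Kat6b) and WT the number called was 0 at both ages, against 0.0129% of all genes at E12.5 and 0.0129% at E15.5. At an unadjusted p under 0.05 were 2 and 1 of the 45 members, where 6.68% and 2.22% of all genes were. DESeq2 and limma-voom also called 0 members in each of the 4 comparisons. The difference of the genotype effect between the ages was called for 0 members in C57BL/6 (0% of all genes) and 0 in FVBxBALB/c (0% of all genes). At an unadjusted p under 0.05 there were 2 and 0 of the 45 members, where 2.72% and 4.04% of all genes were. These misses do not show equal levels. The 95% interval of the fold change lay inside 2-fold in either direction for 33 and 37 of the 45 members in the labelled knockout at E12.5 and E15.5 and for 35 and 34 in Tg(Kat6b), and the Bmp4 and Inhba intervals were wider in all 4. For Smad3 the log2 intervals were -0.39 to 0.25 and -0.30 to 0.21 in the labelled knockout and -0.45 to 0.09 and -0.14 to 0.43 in Tg(Kat6b), in the order E12.5 and E15.5.

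**Figure D5:**
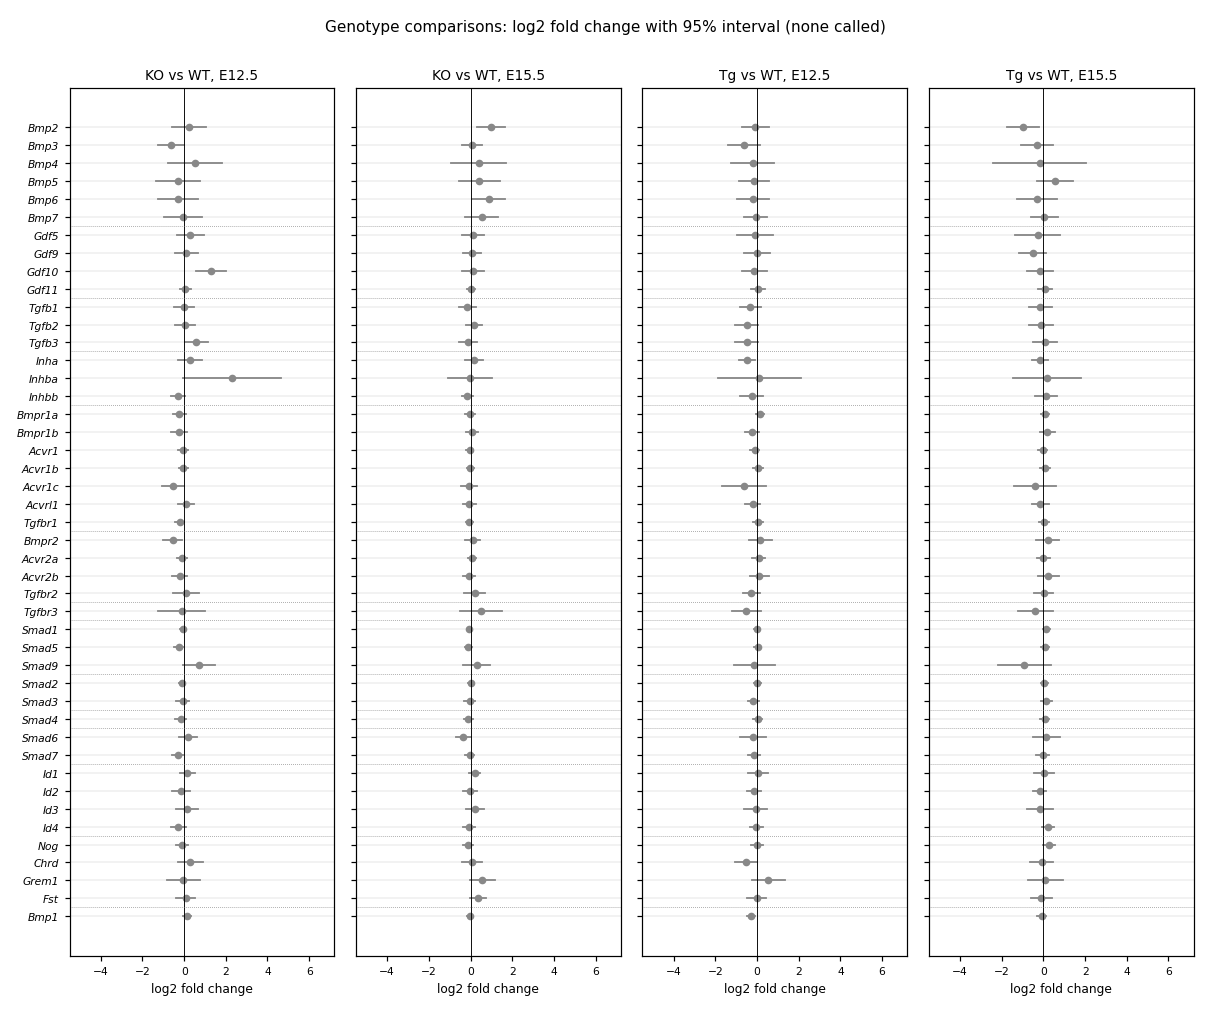
Log2 fold change of each of the 45 tested members against WT (horizontal axis, with 95% interval) for the labelled knockout (3 libraries per group at E12.5 and 5 at E15.5) and Tg(Kat6b) (4 per group), ordered by role. None was called, and either Inhba or Bmp4 has the widest interval in each panel.

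The member with the smallest p in the labelled knockout at E12.5 was Gdf10, which encodes BMP3B. Its WT libraries were at 2.17, 2.22 and 2.74 CPM and the labelled knockout libraries at 4.21, 9.23 and 3.81. All 3 lay above WT, and the highest was library 3, which also had the highest meningeal sum (2934). The log2 fold change was 1.27 (95% interval 0.55 to 2.00, adjusted p = 0.881 by edgeR), and without that library it was 0.75. Bmpr2, the BMP type II receptor gene, was at 79.4, 52.8 and 43.6 CPM in WT and at 42.6, 40.9 and 38.1 in the labelled knockout (-0.54, SE 0.22). The inhibitory Smad7 was at 11.8, 13.8 and 11.5 against 10.6, 9.91 and 9.67 (-0.31, SE 0.13). For both genes every labelled knockout library was below every WT library, and both had an adjusted p = 0.881. Gdf10, Bmpr2 and Smad7 were picked by their small p, so separate libraries are no added support. How many of all genes separate in this way was not counted. With 1 library left out, the Bmpr2 value ran from -0.71 to -0.26. Smad5 (-0.26, SE 0.11) and Tgfb3 (0.57, SE 0.26) were the next by p, with overlapping libraries; for Tgfb3 the value was 0.03 without labelled knockout library 3, which stood at 16.5 CPM.

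At E15.5 Bmp2 had the smallest p among the members in both genotypes. The C57BL/6 WT libraries were at 1.61, 0.92, 1.72, 1.02 and 0.91 CPM and the labelled knockout at 2.17, 3.39, 2.85, 1.86 and 1.73, all above WT. The log2 fold change was 0.97 (95% interval 0.30 to 1.65, adjusted p = 1 by edgeR). In FVBxBALB/c, WT was at 1.86, 1.43, 1.04 and 1.29 and Tg(Kat6b) at 0.57, 0.82, 0.57 and 0.87, all below WT (-0.97, 95% interval -1.74 to -0.20, adjusted p = 1). These values rest on 19, 31, 15 and 13 counts in WT and on 7, 15, 7 and 9 in Tg(Kat6b). The C57BL/6 libraries had between 16 and 35 counts in WT and between 41 and 74 in the labelled knockout. The groups did not overlap in either case, and neither difference passed the adjustment over all genes. Bmp2 was picked by its small p, so the separation is no added support, and its share over all genes was not counted. Summed meningeal markers were between 111.5 and 394.8 CPM in the labelled knockout and between 119.3 and 274.7 in its WT. They were between 114.4 and 137.1 in Tg(Kat6b) and between 116 and 153.7 in its WT. Hem and choroid plexus sums were between 129.2 and 675.9 in the labelled knockout and between 125 and 796.5 in its WT. In Tg(Kat6b) these were between 105 and 128.3, and in its WT between 118.6 and 599. Means against WT were 234.7 against 164.9 and 129.6 against 129.7 for meningeal sums. For hem and choroid plexus sums they were 458.6 against 334.7 and 111.8 against 242.9. The last mean was raised by FVBxBALB/c WT library 3, at 599, which had the lowest Bmp2 of its group (1.04 CPM). The part of these tissues in the Bmp2 differences was not tested. Next by p in the labelled knockout were Bmp6 (0.86, SE 0.38), Smad6 (-0.35, SE 0.17), Grem1 (0.56, SE 0.28) and Fst (0.34, SE 0.18). Labelled knockout libraries 3 and 4, high in both hem and meningeal markers, had Bmp6 at 5.14 and 4.75 CPM, against 2.73, 3.32 and 2.00 in the others. WT library 3 was at 3.64 where the other WT libraries were between 0.88 and 1.98. Labelled knockout library 1 and WT library 4, also high in hem and choroid plexus markers, were only at 2.73 and 1.98 CPM.

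In Tg(Kat6b) at E12.5 the smallest p belonged to Bmp1, at 67.7, 67.1, 72.1 and 60.2 CPM in WT and 64.0, 44.5, 54.1 and 55.9 in Tg(Kat6b) (-0.29, SE 0.10, adjusted p = 0.724). Inha followed, at 8.07, 8.39, 7.01 and 4.89 against 6.63, 4.71, 4.94 and 3.77 (-0.48, SE 0.18, adjusted p = 0.724). Both overlapped. Chrd (-0.53), Tgfb2 (-0.51) and Tgfb3 (-0.50) were next. WT library 4, the highest of its group in meningeal and in hem and choroid plexus markers, held the top Tgfb2 (60.1 CPM) and Tgfb3 (14.7 CPM). At E15.5 Nog (0.27), Smad1 (0.13), Gdf9 (-0.52) and Smad9 (-0.91) followed Bmp2, each with overlapping libraries. The interaction of genotype and age had its smallest p at Gdf10 in C57BL/6 (-1.15, SE 0.43, adjusted p = 1) and at Bmp2 in FVBxBALB/c (-0.89, SE 0.47, adjusted p = 1); Bmpr2, Tgfb3, Smad6 and Bmp6 came next in the former and Bmpr1b, Smad3, Tgfb3 and Bmp1 in the latter.

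The 2 wild types differed in few members. In the fit of all libraries, where 47 members were tested, FVBxBALB/c WT against C57BL/6 WT gave 4 calls at E12.5, or 8.51% against 12.8% of all genes. At E15.5 it gave 3, or 6.38% against 25.3%. Acvr2b was lower in FVBxBALB/c at both ages, at 31.2, 28.6, 32.4 and 17.7 CPM against 44.3, 46.4 and 35.8 at E12.5 (-0.62, SE 0.21, adjusted p = 0.0431) and at 10.4, 14.2, 7.06 and 8.04 against 12.2 to 22.3 at E15.5, where the ranges overlapped (-0.84, SE 0.20, adjusted p = 0.00256). Nog (-0.42, adjusted p = 0.0353) and Id1 (-0.61, adjusted p = 0.0454) were lower and Smad2 (0.23, adjusted p = 0.0359) higher at E12.5, and Acvr1b (-0.38, adjusted p = 0.0042) and Id3 (-0.83, adjusted p = 0.0213) were lower at E15.5. The 4 calls at E12.5 were fragile: leaving out 1 library left between 0 and 6, with 2 without C57BL/6 WT 1, 1 without C57BL/6 WT 3, 0 without C57BL/6 WT 4 and 1 without any of FVBxBALB/c WT 1, 2 or 3. At E15.5 the count was 5 without C57BL/6 WT 1 and 7 without FVBxBALB/c WT 3, and Id3 lost its call without C57BL/6 WT 3 or without FVBxBALB/c WT 1, 2 or 4 (adjusted p = 0.0539 to 0.0776).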

How the data were processed

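The deposited values are whole-number counts of reads per gene, 1 file per library, made by the authors with featureCounts on mm10 after bcl2fastq, per the submitters' processing notes; the sources used here do not name the aligner, annotation or counting settings. The deposited files also hold a gene length in bases, used for RPKM. The labels' protocols name total RNA and a TruSeq v2 kit, which does not mark strand, so reads of a gene and an antisense partner cannot be told apart. Of 27179 rows, 848 named no gene (at most 2% of a library's counts) and were left out. In WT 5 and labelled knockout 5 of C57BL/6 at E15.5 the column header reads E12.5, and the labelled knockout 5 has a dorsal telencephalon tissue label; both were kept as E15.5 by their titles.

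Counts were tested with edgeR 4.0.16 (R 4.3.3): filterByExpr (minimum count 10, minimum total 15), TMM scaling and robust quasi-likelihood F tests, in 1 fit of the 16 libraries per background (16118 and 15556 genes), or of all 32 libraries for the wild types of both backgrounds (16399 genes). Benjamini-Hochberg adjustment ran over all genes, and a call is an adjusted p below 0.05. Standard errors (SE) were taken as the size of the log2 fold change divided by the root of F. CPM use 1 TMM scale over all libraries. The biological coefficient of variation was 0.162 and 0.188. Scripts were tested on simulated data. Alternatives were DESeq2 1.42.0, limma-voom (limma 3.58.1), size factors, no filter, other sets of libraries, blocks and leaving out each library.

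The members and gene lists were chosen with earlier results of these data known. Named members are the called ones and the 5 with the smallest p in each genotype and interaction comparison, up to 12 in each direction for age called in both wild types, up to 6 called between backgrounds, and for levels the hem ligands, receptors, SMAD, ID and antagonist genes. Same-numbered C57BL/6 embryos of an age shared a litter per the labels. At E12.5, libraries 3 and 4 of both genotypes all came from the same litter, and library 1 of each from another. Outside the fits with litter as a block, littermates were tested as independent. Without WT library 1, the C57BL/6 WT libraries at E12.5 are all littermates. Correlations of the deviations of same-numbered C57BL/6 embryos from group means ran from -0.361 to 0.392. FVBxBALB/c litters are not given, with correlations from -0.141 to 0.604. In FVBxBALB/c, where nothing names separate embryos, p-values measure only the spread between these libraries, which may be technical. Reads had no molecular identifiers, so counting intervals cover counting error only.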

Additional observations from a re-analysis of the deposited data

Results flagged for a closer look

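In 9 of 216 pairs of a named member and a group of 4 or 5 libraries, 1 library stood far from the rest of its group. Chance would flag about 1 in 20, or 10.8 pairs, if the CPM were independent and normally distributed, which was not tested. The number flagged was not above that.

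In C57BL/6 at E15.5, Bmp4 was at 1.57 CPM in WT library 3, against 0.21 to 0.58 in the other WT libraries; this library had 796.5 CPM of hem and choroid plexus markers and 274.7 of meningeal markers, the highest of its group, and their part was not tested. Tgfb2 was at 30.8 CPM in labelled knockout library 2, against 24.1 to 25.2. Gdf9 was at 1.70 CPM in WT library 5, against 2.51 to 2.75.

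In Tg(Kat6b) at E12.5, Inhba was at 1.01 CPM in library 4 (23 counts), against 0 to 0.077 in the others; that library had the highest meningeal sum of its group, 1814 CPM, and its part was not tested. Id3 was at 21.3 CPM in library 1, against 39.7 to 43.5, and that library had the lowest meningeal sum of any E12.5 library, 369.6 CPM. Nog was at 16.9 CPM in library 2, against 11.8 to 12.3, and that library had the highest hem and choroid plexus sum of its group, 657.3 CPM.

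In FVBxBALB/c WT, Smad5 was at 247.7 CPM in library 1 at E12.5, against 293.7 to 299.4, and Smad7 at 10.5 CPM in the same library, against 9.66 to 9.79. Smad1 was at 89.4 CPM in library 4 at E15.5, against 80.7 to 81.7.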

How the results depend on the processing

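The counts of members called in the 4 genotype comparisons and the 2 interactions were 0 under every alternative run, including DESeq2, limma-voom and each library left out. With the replicate block the count was 0 in the labelled knockout and in Tg(Kat6b) at both ages and 0 in both interactions, and with litter as a block 0 in the 3 C57BL/6 comparisons, so the pairing changed no call. For age the counts stayed within 1.5 times: they ran from 28 to 35 in C57BL/6 WT, from 25 to 31 in FVBxBALB/c WT, from 30 to 37 in labelled knockouts and from 24 to 31 in Tg(Kat6b). The comparison of both wild types did not hold as well. At E12.5 its 4 calls became 0 with no filter on low counts and 0 with only the 2 groups compared, and leaving out 1 library gave 0 to 6. At E15.5 its 3 calls became 5 with DESeq2 and 7 with only the 2 groups compared, and leaving out 1 library gave 2 to 7. The cause was not tested. Without FVBxBALB/c WT libraries 3 and 4 at E12.5, those highest in meningeal markers and left out after the data were seen, the differences of Tgfb2 and Tgfb3 between Tg(Kat6b) and WT turned from -0.51 and -0.50 to 0.14 and 0.13; neither was called in any setting. Genes at a few counts, such as Inhba at E12.5 and Bmp4 in FVBxBALB/c at E15.5, have fold changes limited by depth.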
